A study of Mus musculus with 18 samples.

Results

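The genes described here are 10 members of the DNA damage checkpoint and p53 pathway, Atm, Atr, Chek1, Chek2, Trp53, Mdm2, Cdkn1a, Pidd1, Brca1 and Brca2, of 21761 genes in an RNA-seq table of mouse B lineage cells. They were taken by symbol, and 10 of 10 were among the 11522 genes tested. Chek2 and Pidd1 were put on the list because the study named them as lower in plasma cells without Dnmt3a and Dnmt3b, the enzymes that methylate new DNA sites, so their plasma cell values are given as a description, without a test.

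Libraries were made from naive B cells of lymph nodes (nB, sorted as B220+ Fas- GL7-), germinal center B cells of lymph nodes (GCB, B220+ Fas+ GL7+ cells that bound the antigen phycoerythrin, PE) and plasma cells of the bone marrow (BMPC, CD138+). All mice carried floxed alleles of both methyltransferase genes on the mixed background B6;129S4-Dnmt3atm3.1Enl Dnmt3btm5.1Enl/Mmnc. Dnmt3-deficient mice were Dnmt3afl/fl Dnmt3bfl/fl and carried a Cre recombinase that acts in the B lineage from early stages on, and Dnmt3-sufficient mice were Dnmt3afl/fl Dnmt3bfl/fl without Cre. GCB and BMPC came from mice at day 30 after immunization with PE in complete Freund's adjuvant. The nB came from mice that were not immunized. Ages are not given in the labels, and the methods of the study give only a range for the start of its experiments. There were 3 libraries in each of 6 groups, each from 5000 sorted cells, and each GCB library pooled cells of more than 1 mouse.

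Cells answer damaged DNA through a pair of kinases. Atm is switched on by double-strand breaks and acts through the kinase Chek2, and Atr is switched on by single-stranded DNA at stalled replication forks and acts through the kinase Chek1. Both routes reach p53, the protein of Trp53, which turns on genes for cell cycle arrest, such as Cdkn1a, and for cell death, and also its own inhibitor Mdm2. Germinal center B cells divide fast while the enzyme AID starts the mutation of their antibody genes, whereas most plasma cells have left the cell cycle.

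In short, Chek1, Chek2, Pidd1 and Brca1 were higher in GCB than in nB in both genotypes. Atm, Trp53, Mdm2, Brca1 and Brca2 were lower in BMPC than in GCB, where the median gene was also lower. Of these, only Brca1 and Brca2 kept the call under all alternatives run. None of the members that could be tested differed between genotypes in any cell type by the threshold used here. In BMPC the intervals of these members were wide and reached past the minimum difference. Those of some members also did so in nB and GCB. Chek2 and Pidd1 were listed at 0 in every Dnmt3-deficient BMPC library and were present in every Dnmt3-sufficient one.

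**Figure D1:**
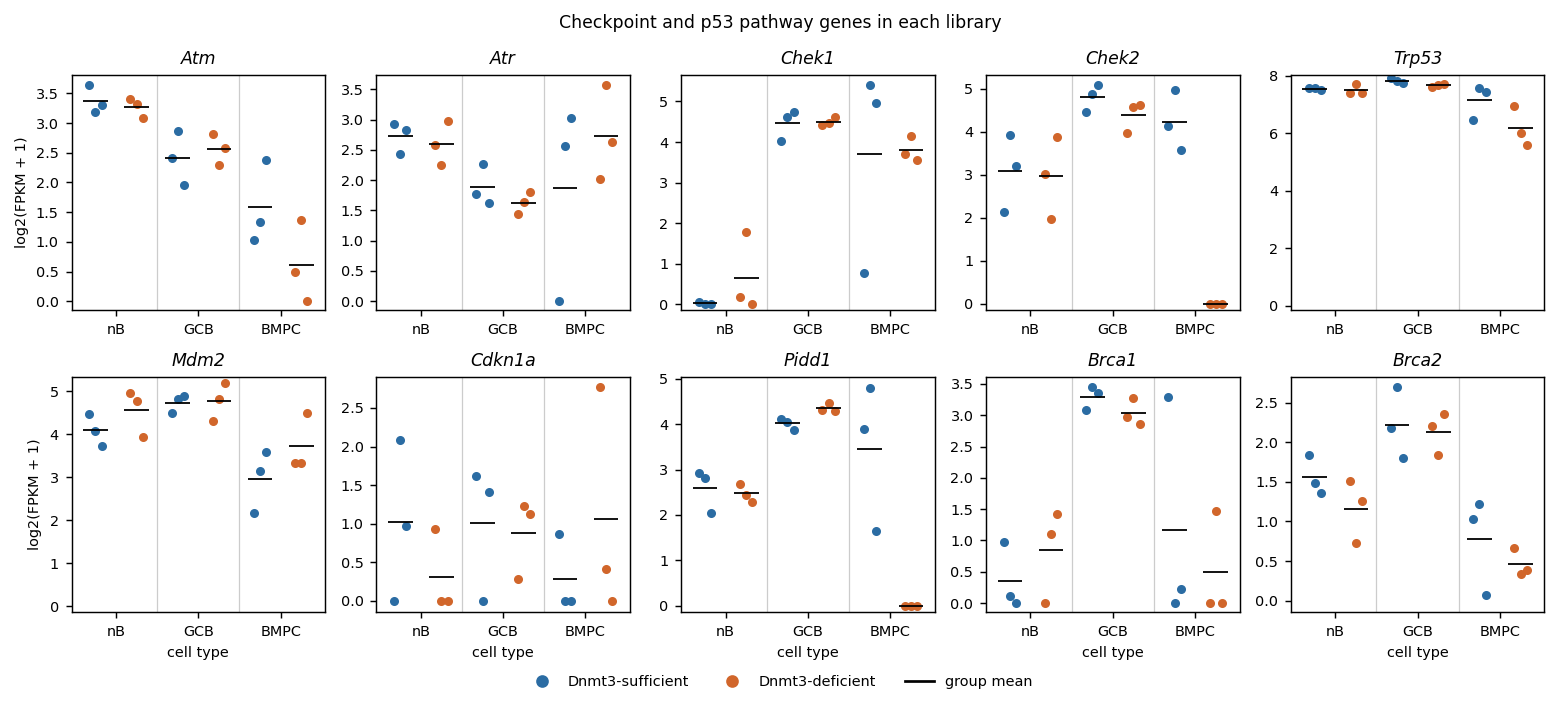
Levels of the 10 genes as log2(FPKM + 1) on the y axis in nB, GCB and BMPC on the x axis, with 1 point per library, blue for Dnmt3-sufficient, orange for Dnmt3-deficient and a black line at the group mean, each panel with its own y range. Chek1 and Brca1 are near 0 in nB and high in GCB, and Chek2 and Pidd1 are at 0 in the 3 Dnmt3-deficient BMPC libraries.

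Levels are FPKM, reads scaled by exon length and by all reads counted on genes, so they can be compared between genes. Reads per gene were recovered from them. Gene reads numbered 6692516 to 8987922 in nB and GCB and 1355231 to 3803197 in BMPC libraries. Between 680 and 1252 of the 11522 genes were without a read in nB and GCB libraries and 2991 to 4615 in BMPC, and the median SD between libraries of a group was 0.27 to 0.41 in nB and GCB and 0.78 to 0.82 in BMPC on the log2(FPKM + 1) scale. Markers fixed for each cell type followed the labels, with a summed level of 1825 to 2005 FPKM for 6 naive B markers in nB against at most 216 elsewhere, 1017 to 1140 FPKM for 6 germinal center markers in GCB against at most 73.0 elsewhere, and 18915 to 51504 FPKM for 7 plasma cell markers in BMPC against at most 1520 elsewhere. A gene used by every cell was also at 0 in some BMPC libraries (1 of 15 such genes in 3 libraries), so a 0 there is reported only as listed at 0. Differences below are on the log2(FPKM + 1) scale with their standard error, from limma over all 18 libraries with Benjamini-Hochberg adjustment over the 11522 genes. The threshold was an adjusted p of at most 0.05 together with a difference of 1 or more.

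Across the members the level differed widely. Trp53 was the highest in every cell type, with a median over 6 libraries of 183 FPKM in nB, 212 in GCB and 105 in BMPC, and its range overlapped that of no other member. In nB it was followed by Mdm2 (18.5), Atm (8.93), Chek2 (7.68), Atr (5.52), Pidd1 (4.94) and Brca2 (1.69), while the medians of Brca1, Cdkn1a and Chek1 were 0.519, 0.452 and 0.0192 FPKM. The ranges of Atm, Chek2, Atr and Pidd1 each overlapped the next in nB, as did those from Brca2 down. In GCB the order was Trp53, Mdm2 (27.3), Chek2 (23.5), Chek1 (22.3), Pidd1 (17.5), Brca1 (8.10), Atm (4.67), Brca2 (3.56), Atr (2.26) and Cdkn1a (1.26). Mdm2, Chek2, Chek1 and Pidd1 overlapped their neighbours there, and so did the last 4. In BMPC the order after Trp53 was Chek1 (14.4), Mdm2 (9.06), Chek2 (5.46), Atr (5.06), Atm (1.28), Pidd1 (1.05), Brca2 (0.451), Cdkn1a (0.166) and Brca1 (0.0834), with each range from Mdm2 on overlapping the one above it.

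The comparison of GCB with nB asked how the genes differ between resting and dividing B cells. Of the 10 members 4 were higher in GCB and 0 were lower, where 28.8% of all genes tested passed in either direction, 12.2% as higher and 16.6% as lower. The median of all genes was at -0.13 on the log2(FPKM + 1) scale in this comparison, so a median gene was slightly lower in GCB.

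The 4 genes that were higher in GCB are a checkpoint kinase of each arm, a death domain protein and a repair gene. The sequence before the annotated start of 3 of them is shown, because these genes moved together and because CpG sites are where methyltransferases act. The sequences are from RefSeq (GRCm38.p6, which held a promoter for 10 of 10 members) and were found once, base for base, in the mm9 genome that the files use. They cover chr5:111268797-111269001 on the plus strand for Chek2, chr7:148629925-148630174 on the minus strand for Pidd1 and chr11:101413270-101413462 on the minus strand for Brca1, up to 250 bases from the start. The farthest 45 bases of Chek2 and 57 bases of Brca1 are left out because they lie in exons of the opposite-strand neighbours Hscb and Nbr1, and the stretch of Chek1 lies inside its mm9 gene model and is not shown. Capitals mark matches to CCAAT and TTTNNCGC on either strand.
Chek2: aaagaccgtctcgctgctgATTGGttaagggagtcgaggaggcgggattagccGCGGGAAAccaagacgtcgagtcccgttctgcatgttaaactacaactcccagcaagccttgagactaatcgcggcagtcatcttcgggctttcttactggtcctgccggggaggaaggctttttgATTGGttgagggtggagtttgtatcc
Pidd1: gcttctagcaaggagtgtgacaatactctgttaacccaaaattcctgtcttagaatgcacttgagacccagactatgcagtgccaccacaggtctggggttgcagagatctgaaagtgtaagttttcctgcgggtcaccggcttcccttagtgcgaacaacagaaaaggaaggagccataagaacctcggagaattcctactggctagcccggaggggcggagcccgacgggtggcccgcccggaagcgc
Brca1: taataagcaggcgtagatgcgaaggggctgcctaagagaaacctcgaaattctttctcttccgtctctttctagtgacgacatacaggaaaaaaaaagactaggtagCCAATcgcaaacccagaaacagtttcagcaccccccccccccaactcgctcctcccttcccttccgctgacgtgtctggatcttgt
The full 250 bases of Chek2 held 17 CpG sites, that of Brca1 12 and that of Pidd1 11, against a median of 6 and an upper quartile of 16 over 32851 promoter stretches of the same length. TTTNNCGC, the letters bound by E2F factors, which drive genes of DNA replication, was found in the stretches of 3 of 10 members (Chek2, Mdm2 and Brca2) and in 4.28% of all promoters. In Chek2 it lay 152 to 145 bases before the start, on the minus strand. CCAAT was found in those of 5 of 10 members against 33.8% of all promoters, and once in Brca1, 86 to 82 bases before the start. TTTGAA, the CHR element of cell cycle genes, was in 0 of 10 against 16% of all. The p53 half-site was matched in 3 of 10, in Trp53, Mdm2 and 1 of the annotated starts of Cdkn1a, against 7.13% of all promoters. These motifs did not overlap each other in the members.

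Chek1, the kinase downstream of Atr, was nearly absent from nB, with a lowest, median and highest level of 0, 0.0192 and 2.42 FPKM over 6 libraries, and 3 libraries were listed at 0. In GCB it lay at 15.3, 22.3 and 25.7 FPKM. Every GCB library was above every nB library in both genotypes, and the difference was 4.15 (SE 0.318, limma adjusted p = 3.55e-09). The gene lies on mm9 at chr9:36516067-36534650 on the minus strand.

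Chek2, the kinase downstream of Atm (chr5:111269036-111303152, plus strand), had a lowest, median and highest level of 2.92, 7.68 and 14.2 FPKM in nB and of 14.6, 23.5 and 32.9 FPKM in GCB. The cell types did not overlap, although the highest nB library came within 1 FPKM of the lowest GCB library. The difference was 1.58 (SE 0.300, limma adjusted p = 0.000266).

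Pidd1 encodes a death domain protein that is induced by p53 and assembles with the adaptor Cradd to activate caspase Casp2. It was matched in the mm9 annotation through its older symbol Pidd (chr7:148624012-148629924, minus strand). Its lowest, median and highest levels were 3.13, 4.94 and 6.54 FPKM in nB and 13.7, 17.5 and 21.0 FPKM in GCB. Every GCB library was above every nB library, and the difference was 1.65 (SE 0.230, limma adjusted p = 8.37e-06).

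Brca1, which recruits the machinery of homologous recombination to breaks (chr11:101350078-101413269, minus strand), measured 0, 0.519 and 1.69 FPKM in nB against 6.30, 8.10 and 9.88 FPKM in GCB. The ranges were far apart, with a difference of 2.56 (SE 0.286, limma adjusted p = 5.25e-07). Its partner Brca2, which acts in homologous recombination (chr5:151325205-151372321, plus strand), measured 0.651, 1.69 and 2.58 FPKM in nB against 2.48, 3.56 and 5.49 in GCB. Those ranges touched, and its difference of 0.82 (SE 0.228, limma adjusted p = 0.00648) was below the minimum of 1.

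Atm and Atr, the kinases at the head of each arm, had the opposite sign to their downstream kinases. Atm (chr9:53247254-53344845, minus strand) measured 7.47, 8.93 and 11.4 FPKM in nB against 2.90, 4.67 and 6.26 FPKM in GCB. The ranges did not overlap, and the difference was -0.83 (SE 0.230, limma adjusted p = 0.00607), short of the minimum. Atr (chr9:95758016-95852063, plus strand) measured 3.73, 5.52 and 6.88 FPKM in nB against 1.71, 2.26 and 3.80 in GCB, with a difference of -0.91 (SE 0.251, limma adjusted p = 0.006). The lowest nB and highest GCB library of Atr overlapped slightly. Of its exon bases 2.2% are shared with the opposite-strand 1700065D16Rik and 1.78% with Gm16794, and the sources used here do not say if reads were counted by strand.

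Counted over the libraries rather than by the fit, 4 of 10 members had every GCB library above every nB library (13.2% of all genes) and 1 of 10, Atm, had every one below (14.4%). Leaving out the minimum difference, 7 members passed on the adjusted p alone, 5 higher and 2 lower, where 48.2% of all genes did so, 20.8% as higher and 27.5% as lower.

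The remaining 3 members belong to the p53 core. Trp53 (chr11:69393861-69405375, plus strand) measured 168, 183 and 209 FPKM in nB against 196, 212 and 242 in GCB, with a difference of 0.22 (SE 0.11, limma adjusted p = 0.107). Mdm2, the ubiquitin ligase that removes p53 (chr10:117125944-117147814, minus strand), lay at 12.2, 18.5 and 30.2 FPKM and at 18.8, 27.3 and 35.4 FPKM, with a difference of 0.43 (SE 0.223, limma adjusted p = 0.121). Cdkn1a, the p21 inhibitor of cell cycle kinases (chr17:29227924-29237667, plus strand), was low everywhere, between 0 and 3.24 FPKM in nB and between 0 and 2.08 FPKM in GCB. Its difference was 0.28, with a 95% interval from -0.48 to 1.04. All 3 genes overlapped between the cell types.

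**Figure D2:**
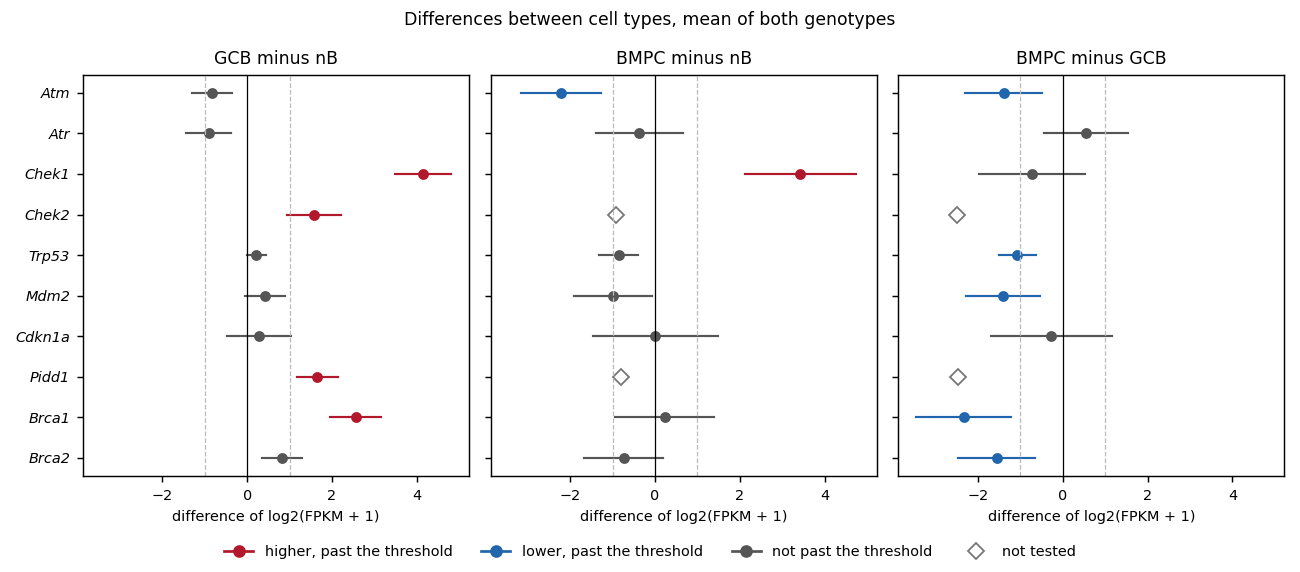
Difference of log2(FPKM + 1) on the x axis for each of the 10 genes on the y axis, as points with 95% intervals, for GCB minus nB, BMPC minus nB and BMPC minus GCB over the mean of both genotypes, with dashed lines at -1 and 1. Chek1 is at 4.15 in GCB and 3.42 in BMPC relative to nB, and the open diamonds are Chek2 and Pidd1 in comparisons with BMPC, which were not tested.

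BMPC were compared with the other cell types for the 8 members that were not chosen on their BMPC values. Against GCB, 5 of 8 were lower and 0 higher, where 36.7% of all genes tested passed, 7.16% as higher and 29.6% as lower. Against nB, 1 of 8 was higher and 1 lower, where 42.3% passed, 8.76% as higher and 33.5% as lower. The median of all genes was at -0.66 against GCB and at -0.79 against nB, and scaling by the median of ratios moved these to -0.53 and -0.70, so each value is to be read against a lower median gene. BMPC libraries also held RNA of marker genes of other marrow cells. The staining panels of the study included antibodies to CD11b, CD11c, CD90.2 and Ly6-G, with the stated aim of removing auto-fluorescent cells. The summed level of 5 erythroid markers was 160 to 2229 FPKM in BMPC against 0.352 to 218 FPKM in nB and GCB, that of 9 neutrophil markers 21.3 to 595 against 0 to 0.461, that of 6 early B markers 379 to 800 against 182 to 378 and that of 6 T cell markers 55.4 to 198 against 0.569 to 75.0. Of 7 macrophage markers 6 to 7 were at 0 in a BMPC library. The part of these cells in the differences was not tested, and fewer cells of a type and less RNA per cell cannot be told apart.

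Atm, the break sensor, was lower in BMPC than in both other cell types. The Dnmt3-sufficient BMPC libraries were at 1.05, 1.51 and 4.21 FPKM and the Dnmt3-deficient ones at 0.403, 1.58 and 0 FPKM. All 6 were below every nB library, and 1 of them lay inside the GCB range. The difference was -2.22 (SE 0.450, limma adjusted p = 0.000683) against nB and -1.39 (SE 0.434, adjusted p = 0.0161) against GCB. The latter lost its call without Dnmt3-sufficient BMPC replicate 1 (adjusted p 0.0633) or Dnmt3-deficient BMPC replicate 3 (0.0595), with a range of 0.00296 to 0.0633 over all alternatives. Atr spread too widely for a call, with 0, 4.94 and 7.12 FPKM in Dnmt3-sufficient and 3.03, 10.8 and 5.18 FPKM in Dnmt3-deficient BMPC, and its differences were -0.37 against nB (95% interval -1.40 to 0.67) and 0.54 against GCB (-0.45 to 1.54).

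Chek1 stayed above its nB level in BMPC. In Dnmt3-sufficient BMPC it measured 0.702, 41.1 and 30.1 FPKM, from 6, 608 and 425 reads, and in Dnmt3-deficient BMPC 12.1, 16.7 and 10.8 FPKM. Of the 6 libraries 5 were above every nB library, and the Dnmt3-sufficient replicate 1 was not. The difference from nB was 3.42 (SE 0.622, limma adjusted p = 0.000258), and that from GCB was -0.72 with a 95% interval of -1.98 to 0.53. The summed level of 12 proliferation genes was 473 to 1014 FPKM in BMPC, 142 to 172 in nB and 2070 to 2368 in GCB. Chek1 had the same order by median, but unlike 9 of 12 proliferation genes it did not pass as lower in BMPC than in GCB. Within BMPC, Dnmt3-sufficient replicate 1 had the lowest Chek1 level, from 6 reads, and 894 FPKM of the proliferation genes. The Dnmt3-deficient libraries, with more Chek1, had 473 to 773 FPKM of these genes. The part of dividing cells in the Chek1 level was not tested.

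Trp53 was lower in BMPC than in GCB. The Dnmt3-sufficient BMPC libraries were at 87.8, 188 and 174 FPKM and the Dnmt3-deficient ones at 122, 62.9 and 47.5 FPKM. Every BMPC library lay below every GCB library, and 4 of the 6 lay below every nB library. The difference from GCB was -1.08 (SE 0.207, limma adjusted p = 0.000441), but under median of ratios scaling it was -0.85 and no longer reached the minimum of 1. The same held without Dnmt3-sufficient BMPC replicate 1 (-0.91) or Dnmt3-deficient BMPC replicate 3 (-0.93). Against nB it was -0.86 (SE 0.215, adjusted p = 0.00346), close to the median of all genes.

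Mdm2 lay at 3.50, 7.79 and 11.0 FPKM in Dnmt3-sufficient and at 9.0, 9.12 and 21.6 FPKM in Dnmt3-deficient BMPC. All but the highest of these were below the GCB range. The difference from GCB was -1.41 (SE 0.420, limma adjusted p = 0.0123), and it was -0.98 (SE 0.437, adjusted p = 0.0751) from nB. The call against GCB was lost without Dnmt3-sufficient BMPC replicate 1 (0.0594) and with voom on recovered reads and cell type weights (0.0819), with a range of 0.00249 to 0.0819 over all alternatives. Cdkn1a was listed at 0 in 3 of 6 BMPC libraries and reached 5.80 FPKM in Dnmt3-deficient replicate 1, from 21 reads. Its differences of 0.01 from nB and -0.27 from GCB had 95% intervals of -1.47 to 1.49 and -1.70 to 1.16, the widest of the 8 members.

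Brca1 and Brca2 were lower in BMPC than in GCB. Brca1 was at 8.76, 0 and 0.167 FPKM in Dnmt3-sufficient and at 0, 1.79 and 0 FPKM in Dnmt3-deficient BMPC. Of the 6 libraries 5 lay below every GCB library, and Dnmt3-sufficient replicate 1 lay within the GCB range. The difference was -2.33 (SE 0.538, limma adjusted p = 0.00204), and against nB it was 0.23 with a 95% interval of -0.94 to 1.40. Brca2 was at 1.04, 1.34 and 0.0484 FPKM and at 0.591, 0.259 and 0.310 FPKM, all below every GCB library, with a difference of -1.56 (SE 0.430, limma adjusted p = 0.00749) from GCB and of -0.74 (SE 0.447, adjusted p = 0.183) from nB. Counted over the libraries, 2 of the 8 members, Trp53 and Brca2, lay wholly below GCB (18.1% of all genes), and 1 of the 8, Atm, lay wholly below nB (18.8%). Without Dnmt3-sufficient BMPC replicate 1 only Brca1 and Brca2 of the 5 calls against GCB remained, and without Dnmt3-deficient BMPC replicate 3 the calls were Mdm2, Brca1 and Brca2.

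The genotypes were compared within each cell type, to ask which genes differ when both methyltransferases are lost. In nB 0 of 10 members passed (background 0.0868%), and in 0 of 10 did the genotypes fail to overlap (4.66% of all genes with Dnmt3-deficient higher and 4.17% lower). The summed level of 5 erythroid markers also separated the nB genotypes, at 0.468 to 1.42 FPKM in Dnmt3-sufficient and 22.5 to 218 FPKM in Dnmt3-deficient libraries. In GCB 0 of 10 passed (background 0.0174%). In BMPC 0 of the 8 members tested passed (background 0.148%). Over all genes, 623, 729 and 870 of 11522 had an unadjusted limma p under 0.05 in nB, GCB and BMPC, and voom on the recovered reads called 9, 2 and 262 genes, none of them a tested member.

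**Figure D3:**
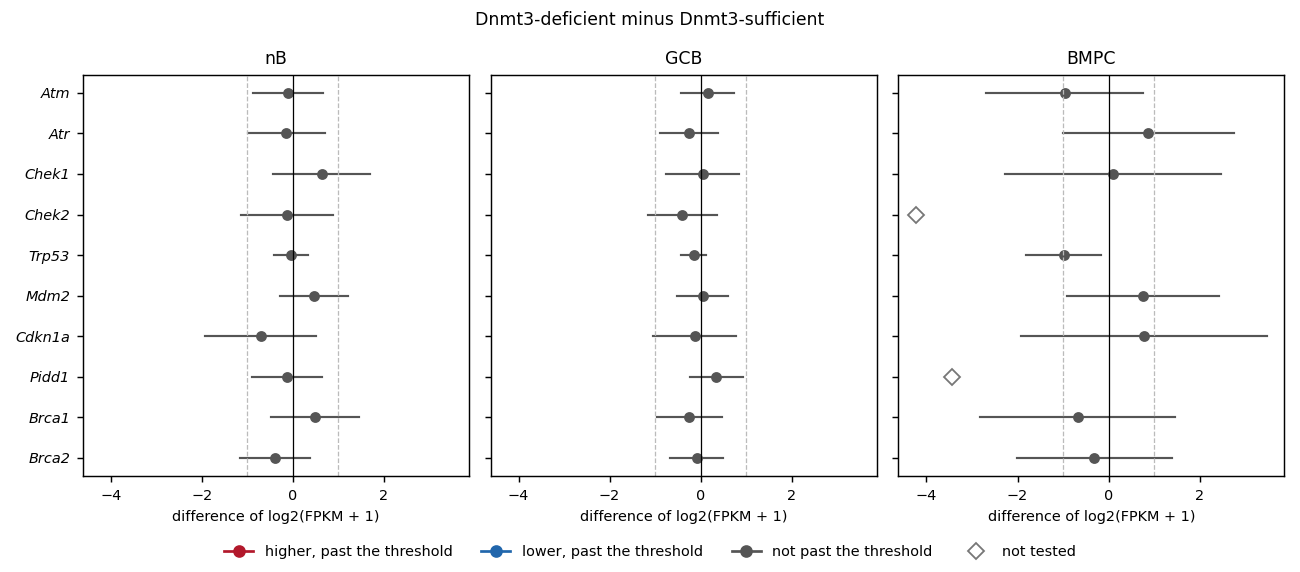
Dnmt3-deficient minus Dnmt3-sufficient difference of log2(FPKM + 1) on the x axis for the 10 genes on the y axis in nB, GCB and BMPC, as points with 95% intervals. Intervals are widest in BMPC, and the open diamonds at -4.23 for Chek2 and -3.45 for Pidd1 in BMPC are descriptions without a test.

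The intervals show what the libraries could resolve. In nB the differences ran from -0.71 for Cdkn1a (95% interval -1.92 to 0.50) to 0.63 for Chek1 (-0.44 to 1.70). In GCB they ran from -0.41 for Chek2 (-1.16 to 0.35) to 0.34 for Pidd1 (-0.24 to 0.92). Over the 8 members tested in BMPC they ran from -0.98 for Trp53 (-1.81 to -0.16) to 0.87 for Atr (-1.01 to 2.75). The BMPC interval of Cdkn1a was -1.93 to 3.48. Differences larger than the minimum of 1 could thus not be excluded in BMPC. In nB this also held for Chek1, Chek2, Mdm2, Cdkn1a, Brca1 and Brca2, and in GCB for Chek2 and Cdkn1a. Trp53 had the narrowest intervals of all members, -0.41 to 0.33 in nB and -0.43 to 0.12 in GCB.

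In GCB the genotypes of 1 of 10 members did not overlap with Dnmt3-deficient higher (5.58% of all genes) and those of 1 of 10 with it lower (5.05%), so neither count is a result about the list. The first was Pidd1, at 16.3, 15.6 and 13.7 FPKM in Dnmt3-sufficient and 18.9, 21.0 and 18.7 FPKM in Dnmt3-deficient GCB. All Dnmt3-deficient libraries were higher, by a difference of 0.34 (SE 0.275, limma adjusted p = 0.946) that did not pass. The second was Trp53, at 242, 223 and 214 FPKM and at 196, 202 and 211 FPKM, where every Dnmt3-deficient library was lower, with a difference of -0.15 (SE 0.132, limma adjusted p = 0.957) that did not pass either.

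In Dnmt3-sufficient BMPC, Chek2 measured 16.6, 30.4 and 10.9 FPKM, from 82, 260 and 89 reads. It was listed at 0, with 0 reads, in all 3 Dnmt3-deficient libraries. Each of those was set at 3 reads, the limit that counting error alone allows for a count of 0. They then average 0.797 FPKM, 24.2-fold below the Dnmt3-sufficient mean. Spread between libraries is not part of that limit, and Atr had 0, 224 and 308 reads in the Dnmt3-sufficient BMPC libraries. Pidd1 measured 13.9, 27.0 and 2.11 FPKM in Dnmt3-sufficient BMPC, from 100, 335 and 25 reads, and was listed at 0 in all 3 Dnmt3-deficient libraries. With 3 reads in each, Pidd1 was 26.1-fold below the Dnmt3-sufficient mean, and 14.6-fold below it without Dnmt3-sufficient replicate 2, the highest library. The lowest, Dnmt3-sufficient replicate 3 at 2.11 FPKM, was closer to the 0.548 FPKM that 3 reads average. For both genes the genotypes are wholly apart, and these are the values that put them on the list. Over all genes, 90 of 11522 (0.781%) were at 0 in every Dnmt3-deficient and above 0 in every Dnmt3-sufficient BMPC library, and 33 (0.286%) were so the other way round. Without overlap, 7.31% of genes were lower in Dnmt3-deficient BMPC and 3.02% higher.

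The same genes were well above the floor in Dnmt3-deficient cells of the other types, with 14.6, 23.1 and 23.9 FPKM of Chek2 and 18.9, 21.0 and 18.7 FPKM of Pidd1 in GCB, and with 7.18, 2.92 and 13.8 FPKM of Chek2 and 5.44, 4.45 and 3.88 FPKM of Pidd1 in nB. With 3 reads in each library, Dnmt3-deficient BMPC were 25.7-fold below the Dnmt3-deficient GCB mean for Chek2 and 35.6-fold below it for Pidd1. Dnmt3-sufficient BMPC replicates 1 and 2 were inside or above the GCB range for both genes, and replicate 3 was below it for both.

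**Figure D4:**
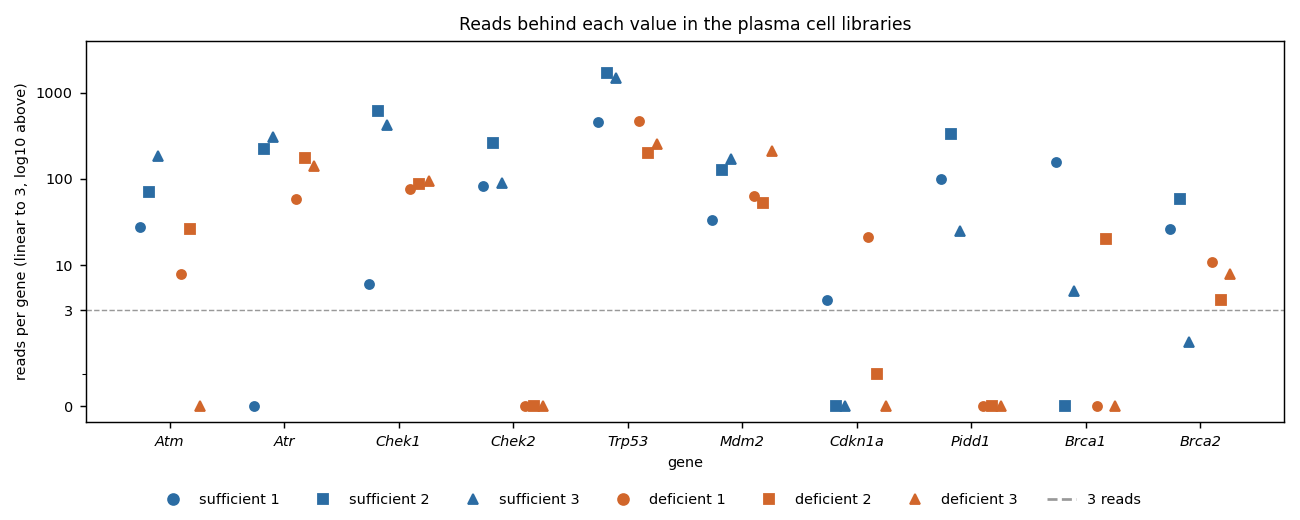
Recovered reads per gene on the y axis, linear up to 3 reads and log10 above, for the 10 genes on the x axis in the 6 BMPC libraries, blue for Dnmt3-sufficient and orange for Dnmt3-deficient, with a dashed line at 3 reads. Chek2 and Pidd1 have 25 to 335 reads in the Dnmt3-sufficient libraries and 0 in the Dnmt3-deficient ones, and Atm, Atr, Cdkn1a and Brca1 also have libraries at 0.

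Of the 8 members tested in BMPC, Trp53 had the smallest p, with the values given above, a difference of -0.98 (SE 0.392, 95% interval -1.81 to -0.16), an unadjusted limma p of 0.0218 and an adjusted p of 0.571. The genotypes overlapped, since Dnmt3-deficient replicate 1 (122 FPKM) was above Dnmt3-sufficient replicate 1 (87.8 FPKM). The differences of Atm, Brca1 and Brca2 were -0.96, -0.68 and -0.31 and those of Atr, Cdkn1a, Mdm2 and Chek1 were 0.87, 0.77, 0.76 and 0.10, and each of these intervals included 0. Chek1 depended on 1 library, since its difference was -1.37 without Dnmt3-sufficient BMPC replicate 1, which had 6 reads of it.

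Other values moved with genotype in the same BMPC libraries. The libraries held 2196198 to 3803197 reads in Dnmt3-sufficient and 1355231 to 2265945 in Dnmt3-deficient BMPC. The summed level of 12 proliferation genes was 894 to 1014 FPKM in Dnmt3-sufficient and 473 to 773 FPKM in Dnmt3-deficient BMPC, that of 5 erythroid markers 1163 to 2229 and 160 to 814 FPKM, and that of 7 plasma cell markers 18915 to 29493 and 33952 to 51504 FPKM, each without overlap. Neutrophil markers (110 to 549 and 21.3 to 595 FPKM), early B markers (678 to 798 and 379 to 800 FPKM), mature B markers (41.9 to 61.8 and 51.8 to 129 FPKM) and T cell markers (55.4 to 178 and 118 to 198 FPKM) overlapped. The part of these in the 0 values of Chek2 and Pidd1 was not tested.

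Whether the genotype difference itself changed from 1 cell type to another was tested as an interaction. For GCB against nB 0 of 10 members passed (background 0.026%), and for BMPC against nB and against GCB 0 of 8 passed (0.104% and 0.0694%). Chek2 and Pidd1 were left out of the comparisons with BMPC for the reason given above.

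The neighbours of these genes in the pathway were followed as 7 lists, with a list of proliferation genes beside them. In GCB compared with nB, the ATR arm, which holds the clamp and fork proteins that activate Chek1, had 7 of 13 genes higher and 0 lower, with a median difference of 1.28. Clspn, the adaptor between Atr and Chek1, was higher by 3.65 (SE 0.236, limma adjusted p = 3.24e-10) and the fork protein Tipin by 2.72 (SE 0.151, adjusted p = 3.65e-11). The ATM arm had 2 of 11 higher, the histone gene H2afx (2.50, SE 0.266) and the nuclease gene Mre11a (1.72, SE 0.353), with a median of 0.19. Cell cycle targets of the checkpoint kinases had 10 of 11 higher, led by Ccnb1 (7.26) and Cdk1 (6.64), the cyclin and kinase that start mitosis. The list of Brca partners and homologous recombination had 12 of 17 higher, led by Rad54l (4.50), and 12 of 12 proliferation genes were higher. Against these, 12.2% of all genes were higher.

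The lists around p53 had calls in both directions. Of 20 tested p53 target genes 3 were higher and 4 lower in GCB than in nB, close to the 12.2% higher and 16.6% lower of all genes, with a median of -0.13, the same as that of all genes. Plk2, a kinase that p53 induces, was higher by 1.58 (SE 0.303, limma adjusted p = 0.000285) and Sesn1, a stress-response gene, was lower at -3.84 (SE 0.317, adjusted p = 9.8e-09). Of 8 tested p53 regulators 1 was lower, the ubiquitin ligase Rchy1 (-1.31, SE 0.298). Of 4 partners of Pidd1, 2 were lower in GCB, Cradd (-1.40, SE 0.405, adjusted p = 0.00817) and Ripk1 (-1.04, SE 0.27, adjusted p = 0.00385), while Pidd1 itself was higher.

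**Figure D5:**
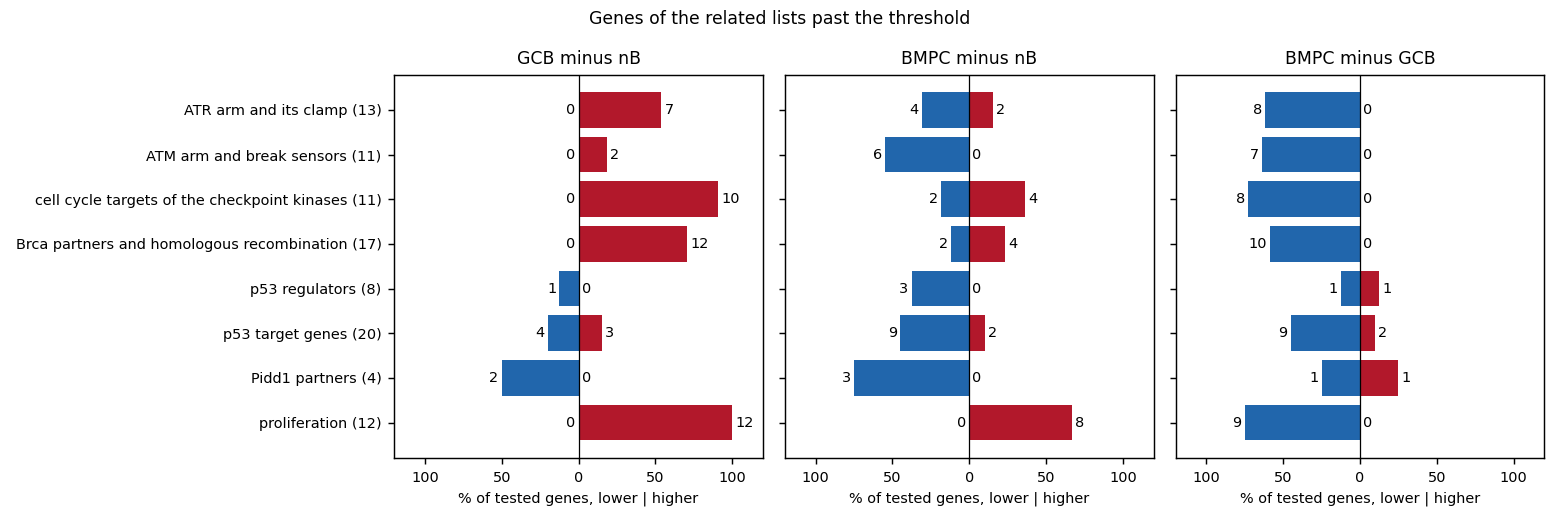
Share of the tested genes of each list past the threshold on the x axis, to the right in red as higher and to the left in blue as lower, for GCB minus nB, BMPC minus nB and BMPC minus GCB, with counts at the bar ends and the number tested in brackets. The cell cycle target list has 10 of 11 genes higher in GCB than nB and 8 of 11 lower in BMPC than GCB.

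In BMPC compared with GCB, 8 of 13 genes of the ATR arm, 7 of 11 of the ATM arm, 8 of 11 cell cycle targets, 10 of 17 Brca partners and 9 of 12 proliferation genes were lower and no gene of these lists was higher, where 29.6% of all genes were lower. Among them Rad9a of the clamp (-3.64) and Timeless (-3.20) fell most in the ATR arm and H2afx (-2.94) and Kat5 (-2.90) in the ATM arm. These differences are over both genotypes, whose BMPC means were far apart for some genes. Kat5 had a mean of 10.3 FPKM in Dnmt3-sufficient and 0 FPKM in Dnmt3-deficient BMPC. Rad9a was at 21.4 and 4.42 FPKM, while Timeless was at 3.51 and 3.14 FPKM. None of these genotype differences passed. Cdc25b, a phosphatase that activates mitotic kinases, was at -6.19, and the repair genes Fanci and Brip1 were at -3.25 and -3.09. Of 20 p53 targets 9 were lower and 2 higher. Trp53inp1 was higher in BMPC by 3.10 and Rrm2b was lower at -3.72. Among the Pidd1 partners Cradd was higher (2.04, SE 0.764, limma adjusted p = 0.0412) and Casp2 lower (-1.74, SE 0.479, adjusted p = 0.00747).

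In BMPC compared with nB, where 8.76% of all genes were higher and 33.5% lower, 4 of 11 cell cycle targets were higher and 2 lower, 4 of 17 Brca partners were higher and 2 lower, and 8 of 12 proliferation genes were higher and 0 lower. Cdk1 was higher by 5.37. The ATM arm had 6 of 11 lower, with Kat5 at -3.26 and Trp53bp1 at -2.18, and the ATR arm had 2 of 13 higher and 4 lower. The Kat5 value is again over both genotypes, whose BMPC means were 10.3 and 0 FPKM. Of the p53 targets 9 of 20 were lower and 2 higher, the ribosomal gene Rps27l (3.03) and Trp53inp1 (2.79), and 3 of 8 p53 regulators and 3 of 4 Pidd1 partners were lower. The shares lower among the p53 regulators and the ATR arm were near that of all genes. In the genotype comparisons no gene of any list passed in any of the 3 cell types, and with 1 common spread for all libraries 6 list genes passed in BMPC, 3 higher and 3 lower, where 3.98% of all genes passed in that fit, 1.34% as higher and 2.65% as lower.

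The members were also compared with each other and with all genes by the correlation of log2(FPKM + 1) over the 18 libraries, given as a description, since libraries of a cell type share their identity and, in BMPC, their lower depth. For Chek2 and Pidd1 the BMPC values that chose them enter such a correlation, so theirs are given over the 12 nB and GCB libraries alone, where the Pearson r of Chek2 with Pidd1 was 0.711, that of Chek2 with Brca1 0.730 and that of Pidd1 with Chek1 0.923. Over the 18 libraries Trp53 had an r of 0.726 with Atm, but over the 12 nB and GCB libraries it was -0.605. Chek1 had an r of -0.465 with Atm and of 0.352 with Brca1 over the 18 libraries. Over those 12 its values were -0.836 with Atm and 0.947 with Brca1. Among all genes, those most like Chek1 over the 18 libraries were Hmgb1 (0.947), Pbk (0.930) and Hmgb1-rs17 (0.911). For Trp53 they were Kdm1a (0.952), Kat7 (0.939) and Tars2 (0.938). Cdkn1a, with 7 of 18 libraries at 0, had no gene above 0.744 (F9).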

How the data were processed

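The deposited FPKM values were made by the authors from paired-end mRNA-seq reads that were mapped to mm9 with TopHat, restricted to unique hits and counted over exons of UCSC KnownGenes, then scaled by exon length and by reads counted on genes. The authors' processing notes also name Picard, R 3.2.2 and edgeR 3.12.1. Their fold changes and FDR columns were not used. Reads were recovered as FPKM times length over what 1 read is worth, and 100% of values were whole within 0.001. The cDNA was amplified and carried no molecular identifiers, so limits given for a count of 0 hold counting error alone.

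Levels were log2(FPKM + 1), a scale that understates changes of low genes, over genes that exceeded 1 FPKM in 2 or more libraries. limma 3.58.1 (R 4.3.3) fitted 6 group means to 18 libraries with an intensity trend and 1 quality weight per cell type (nB 1.41, GCB 2.51, BMPC 0.283). A weight per cell type was chosen because of earlier work on these data. There, 1 common spread gave as many BMPC calls without a genotype difference as with it. The fit was also run on simulated data, and the outcome of that run is not reported here. Tests were two-sided. The nB and BMPC libraries are numbered in accession order, and p-values measure the spread between these libraries. Replicates 1 and 2 of nB and GCB were female and 3 male. In BMPC Dnmt3-sufficient replicate 2 and Dnmt3-deficient replicate 1 were female.

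The members, the pathway lists and the tests were chosen with earlier results of these data known. All 10 members are named, with up to 2 genes per list and comparison that changed most among those past the threshold, and the 3 genes most correlated with a member other than Chek2 and Pidd1. Chek2 and Pidd1 had no test with BMPC. The planned edgeR test on recovered reads was not run on FPKM, and voom was used instead, chosen after seeing the data, as were the correlations without BMPC. Protein sequences were not used here. Some genes are not reported here by name.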

Additional observations from a re-analysis of the deposited data

Results flagged for a closer look

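Pidd1 was picked out because its genotype difference had opposite signs in GCB and BMPC in every library. In GCB every Dnmt3-deficient library lay above every Dnmt3-sufficient one (0.34 on the log2(FPKM + 1) scale, limma adjusted p 0.946), and in BMPC every Dnmt3-deficient library was listed at 0 and lay below every Dnmt3-sufficient one (-3.45). The BMPC value is what put Pidd1 on the list, so the difference between the cell types was not tested.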

How the results depend on the processing

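Counts of members past the threshold moved by more than 1.5 times in GCB compared with nB without a minimum difference (7 against 4) and in BMPC compared with GCB at an adjusted p of 0.01 (3 against 5) or on leaving out 1 library (2 to 5). In BMPC compared with nB the count was 2 or 3. Trp53 was added without Dnmt3-deficient BMPC replicate 1 or without a minimum difference, Mdm2 without Dnmt3-deficient nB replicate 3 and Brca2 with voom. In GCB compared with nB, Atr was added without Dnmt3-sufficient GCB replicate 2, and Atr and Brca2 with a pseudocount of 0.1 or voom with cell type weights. The counts of members between genotypes and in the interactions were 0 under all alternatives run. List genes past the threshold between genotypes numbered 0, but 1 in nB with a pseudocount of 0.1 (0 to 2 on leaving out 1 library), and in BMPC 6 with 1 common spread, 4 with voom and 0 to 1 on leaving out 1 library. GCB numbers did not pair the libraries (correlations of deviations -0.000, -0.017 and 0.026), and with the replicate block in GCB 4 members were called in GCB against nB and 5 in BMPC against GCB, as without it.

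Signs turned only for differences that had not passed. On leaving out 1 library these ranged, for genotypes in nB, from -0.20 to 0.02 (Atm), -0.33 to 0.04 (Atr), -0.60 to 0.37 (Chek2), -0.14 to 0.02 (Trp53) and -0.39 to 0.04 (Pidd1). In GCB they ranged from -0.07 to 0.37 (Atm), -0.18 to 0.18 (Chek1), -0.16 to 0.28 (Mdm2), -0.64 to 0.17 (Cdkn1a) and -0.30 to 0.15 (Brca2), and in BMPC from -0.06 to 1.45 (Atr), -1.37 to 0.94 (Chek1), -0.08 to 1.30 (Cdkn1a) and -1.26 to 0.38 (Brca1). BMPC minus nB ranged from -0.66 to 0.10 (Atr), -0.42 to 0.28 (Cdkn1a) and -0.30 to 0.52 (Brca1), and BMPC minus GCB from -1.15 to 0.01 (Chek1). The Cdkn1a genotype difference in GCB was 0.20 with a pseudocount of 0.1, 0.64 with voom and 0.61 with voom and cell type weights. BMPC minus nB of Cdkn1a was -0.10 with a pseudocount of 0.1 and -0.03 with sex as a covariate, and BMPC minus GCB of Atr was -0.07 with voom. The cause was not tested. Depth limits BMPC, where 1 read weighs most. The edgeR alternative was not run.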
